A study of Mus musculus with 30 samples.

Results

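Nitric oxide and arginine metabolism was followed through 9 genes, taken as the rows of the deposited count table with the symbols Nos2, Gch1, Ass1, Asl, Arg1, Arg2, Slc7a1, Slc7a2 and Odc1. All 9 were among the 13173 genes tested, of 30538 in the table. The RNA came from mouse bone marrow derived macrophages in 30 libraries, 10 groups of 3, with mice numbered 1 to 3 within each genotype. C57BL/6 wild-type cells were pretreated for 18 h with OSW-1 at 0.3 µM, itraconazole at 1 µM or 25-hydroxycholesterol (25HC) at 5 µM, or left untreated, and each condition was then given lipopolysaccharide (LPS) at 10 ng/mL for 18 h or left unstimulated. Untreated cells from Ch25h-/- mice, which lack the enzyme that makes 25HC from cholesterol, were handled with and without LPS in the same way. By the labels, unstimulated libraries are at 0 h and LPS libraries at 18 h. Each LPS response therefore also spans 18 h of further culture, whose part was not tested. OSW-1 is a steroidal saponin, itraconazole an azole antifungal and 25HC an oxysterol, and the series studies them as inhibitors of oxysterol binding protein (OSBP). No vehicle is named for the untreated cells.

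Arginine sits at a branch point in macrophages. Inducible nitric oxide synthase, encoded by Nos2, turns it into nitric oxide and citrulline and needs the cofactor tetrahydrobiopterin, whose synthesis starts with GTP cyclohydrolase 1 (Gch1). Citrulline is returned to arginine by argininosuccinate synthase (Ass1) and argininosuccinate lyase (Asl). The cytosolic arginase Arg1 and the mitochondrial arginase Arg2 instead split arginine into urea and ornithine, and ornithine decarboxylase (Odc1) starts polyamine synthesis from ornithine. Arginine enters the cell through the cationic amino acid transporters CAT1 (Slc7a1) and CAT2 (Slc7a2). Mouse macrophages are known to switch on Nos2 after LPS, and Arg1 is widely used as a marker of alternative activation.

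Library totals ran from 23656860 to 43922154 counts. Levels are per-million counts (CPM) scaled by TMM, and fold changes are log2 values ± SE from 1 edgeR quasi-likelihood fit of all libraries, called at a Benjamini-Hochberg adjusted p under 0.05. Values in threes are mouse 1, 2 and 3 in that order. Ch25h was read at 0 to 0.277 CPM in Ch25h-/- libraries and 0.973 to 2.34 CPM in untreated wild-type libraries. The 8 macrophage markers were all detected in every group. Their summed level was 5320 to 7423 CPM with OSW-1 and LPS, 14756 to 27882 CPM with itraconazole and LPS and 13885 to 20123 CPM with 25HC and LPS, against 24186 to 35502 CPM in untreated wild-type cells with LPS and 17260 to 21949 CPM in untreated unstimulated cells. In bulk RNA, fewer cells of a type, less RNA per cell and a change in the marker genes themselves cannot be told apart. The part of this marker difference in the results for each compound with LPS was not tested. Lyz2 weighs most in the sum, with a median of 12656 CPM over the libraries, and Adgre1 follows at 2248 CPM. Markers of neutrophils, dendritic, T and B, erythroid, basophil and mast, stromal and endothelial cells summed to at most 23.8 CPM per list in any library, and the highest neutrophil sum was 17.2 CPM. All libraries of OSW-1 with LPS and of Ch25h-/- cells differ from the rest in the counting itself. Every count is even in 20 libraries but not in these 9, nor in the unstimulated 25HC library of mouse 3. Halving the counts of the even libraries changed the call of no member but Slc7a1, in the LPS response of untreated wild-type cells. Halving only rescales whole libraries, so it cannot show whether the counting altered single genes. Where OSW-1 with LPS is set against other groups, or the genotypes against each other, counting type and condition cannot be told apart.

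**Figure D1:**
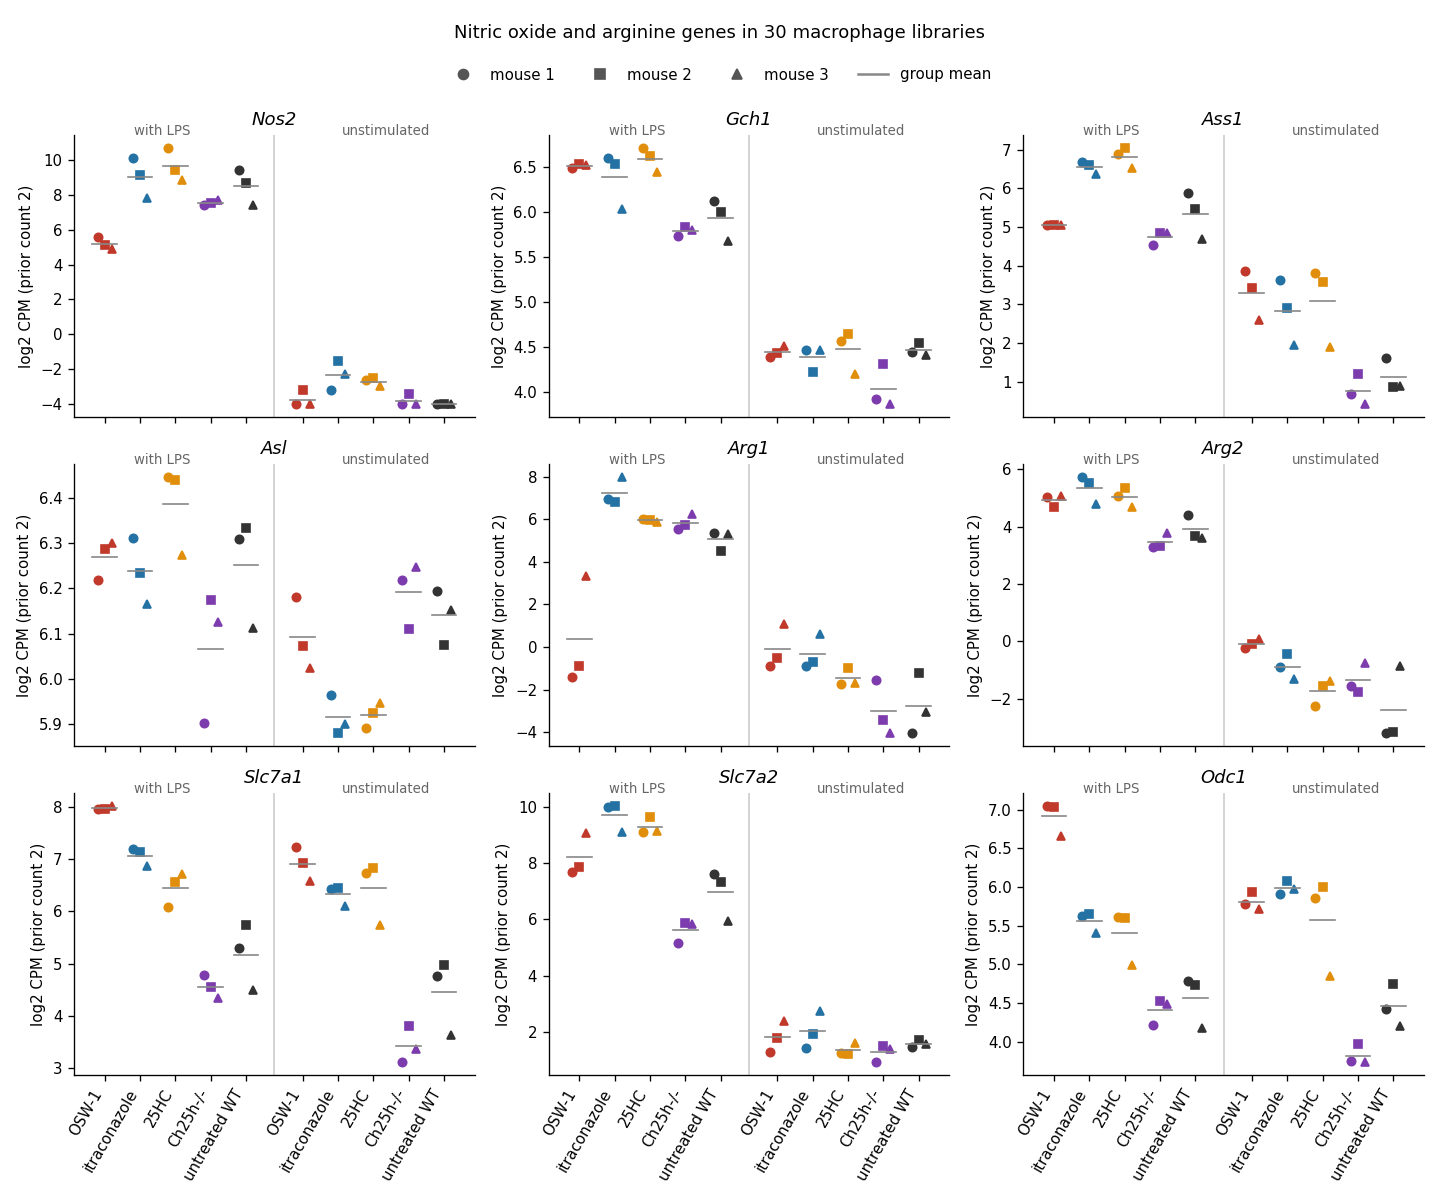
Level of each member in every library, as log2 CPM with a prior count of 2 on the vertical axis and the 10 groups along the horizontal axis, LPS libraries on the left of each panel. Symbols are mice and grey lines group means. Nos2, Arg1 and Arg2 are near the floor without LPS, and Slc7a2 is low there, at 1.82 to 6.65 CPM. Slc7a1 and Odc1 are already raised by each compound without LPS.

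Nos2 (chr11:78920787-78960254, plus strand; all gene coordinates are GRCm38, GENCODE vM21) was switched on by LPS from almost nothing. With LPS it reached 691, 409 and 174 CPM in untreated wild-type cells. Mouse 1 was highest and mouse 3 lowest, and the same order of mice held with OSW-1, itraconazole and 25HC. Without LPS it had 0.0475, 0.279 and 0.147 CPM with itraconazole, 0.0982, 0.112 and 0.0636 CPM with 25HC, counts in 1 library each of the OSW-1 group (0.0488 CPM) and the Ch25h-/- group (0.033 CPM), and no count in the 3 untreated wild-type libraries. Against the limit of 3 reads over the summed unstimulated libraries, the LPS level was at least 7978-fold higher. Where a few unstimulated reads were present, the ratio was 10978 with 25HC (95% exact binomial interval 5043 to 29914), 4100 with itraconazole (2160 to 8968), 2269 with OSW-1 (407 to 89653) and 15376 in Ch25h-/- cells (2759 to 607381). These limits and intervals cover counting error only.

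OSW-1 cut the LPS-induced Nos2 transcript deeply. The libraries held 48, 34.6 and 29.8 CPM with OSW-1 and LPS, against 691, 409 and 174 CPM in untreated cells with LPS, and the groups did not overlap. Nos2 fell by 3.50 ± 0.45 on the log2 scale (edgeR adjusted p = 1.25e-06), and OSW-1 was lower than untreated in 3 of 3 mice. The SD between mice was 9.38 CPM around a mean of 37.5 with OSW-1 and 258 around 425 in untreated cells (n = 3 each). These SDs belong to unlike means, and Ch25h-/- cells with LPS had an SD of 18.8 around 188. Every setting tried kept the call of Nos2 as lower with OSW-1.

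25HC moved Nos2 the other way. Its LPS libraries held 1700, 701 and 474 CPM, overlapping those of untreated cells. Within each mouse the 25HC library was higher, by 2.46, 1.71 and 2.72 times in CPM. The change of 1.17 ± 0.45 passed (edgeR adjusted p = 0.0412), and with the mouse as a block it was the same size at an adjusted p of 0.000362. It was lost with DESeq2 (adjusted p = 0.124) and in the fit on the 2 compared groups alone (adjusted p = 0.157). Without mouse 1 of the 25HC group the value was 0.47 (adjusted p = 0.427), and without untreated mouse 2 or mouse 3 it was 1.15 and 0.80 (adjusted p = 0.0949 and 0.171). Itraconazole libraries with LPS held 1106, 568 and 228 CPM of Nos2, each above the untreated library of its mouse by 1.60, 1.39 and 1.31 times. That difference did not pass (0.58 ± 0.45, adjusted p = 0.288, or 0.0532 with the mouse as a block).

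Gch1 (chr14:47153895-47189413, minus strand), which feeds the cofactor of the synthase, was expressed at rest and rose with LPS in all 5 conditions. Untreated wild-type cells had 69.5, 63.9 and 51.2 CPM with LPS and 21.7, 23.4 and 21.3 CPM without. The LPS responses were 2.06 ± 0.13 with OSW-1, 2.02 ± 0.13 with itraconazole, 2.11 ± 0.14 with 25HC, 1.74 ± 0.14 in Ch25h-/- cells and 1.47 ± 0.14 in untreated wild-type cells, with edgeR adjusted p of 1.29e-09 or less in each. No compound moved Gch1 in unstimulated cells, where the differences from untreated lay between -0.08 and 0.02 and none passed. With LPS, all 3 compounds raised it. The levels were 89.6, 92.7 and 91.4 CPM with OSW-1 (0.57 ± 0.13, adjusted p = 0.000524), 96.6, 92.2 and 65.3 CPM with itraconazole (0.46 ± 0.13, adjusted p = 0.00528) and 105, 98 and 86.8 CPM with 25HC (0.65 ± 0.13, adjusted p = 0.000436). The OSW-1 and 25HC libraries all lay above the untreated ones, and those of itraconazole overlapped them. The itraconazole call was lost in the fit on the compared groups alone (adjusted p = 0.0666). Thus under OSW-1 with LPS the 2 genes that nitric oxide synthesis needs went opposite ways, Nos2 down and Gch1 up.

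Ass1 (chr2:31470207-31520672, plus strand), which rebuilds arginine from citrulline, shares a near-identical copy in this table. A processed pseudogene on chromosome 10, Gm5424, matches 1240 aligned bases of the Ass1 transcript at 99.52% identity and collected 442% of the counts of Ass1. The 2 differ at 6 positions of the coding sequence, T399C, T429C, A520T, G656C, T1011C and C1143T, counted from the A of the start codon with the base of Ass1 first. The stretch of coding bases 384 to 443 is shown because it holds 2 of these positions, marked by capitals, and no other difference. The aligned part is the coding sequence, and how reads were placed between the loci was not examined (GRCm38).
Ass1: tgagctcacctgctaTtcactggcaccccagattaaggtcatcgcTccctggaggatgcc
Gm5424: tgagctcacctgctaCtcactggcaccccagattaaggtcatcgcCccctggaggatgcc

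Across the 30 libraries Gm5424 carried 3.66 to 7.06 times the CPM of Ass1, with a median of 4.35. A fit of the summed rows made the same call as Ass1 alone in every comparison, which was chosen as an alternative after the data were seen. Ass1 itself read 58.4, 44.0 and 25.8 CPM with LPS and 2.98, 1.77 and 1.80 CPM without in untreated wild-type cells. It rose by 4.27 ± 0.42 (edgeR adjusted p = 6.2e-09), and the summed rows rose by 4.29 ± 0.38. Values given below for Ass1 are those of its own row unless the sum is named. How much of that row comes from the Ass1 gene was not measured.

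**Figure D2:**
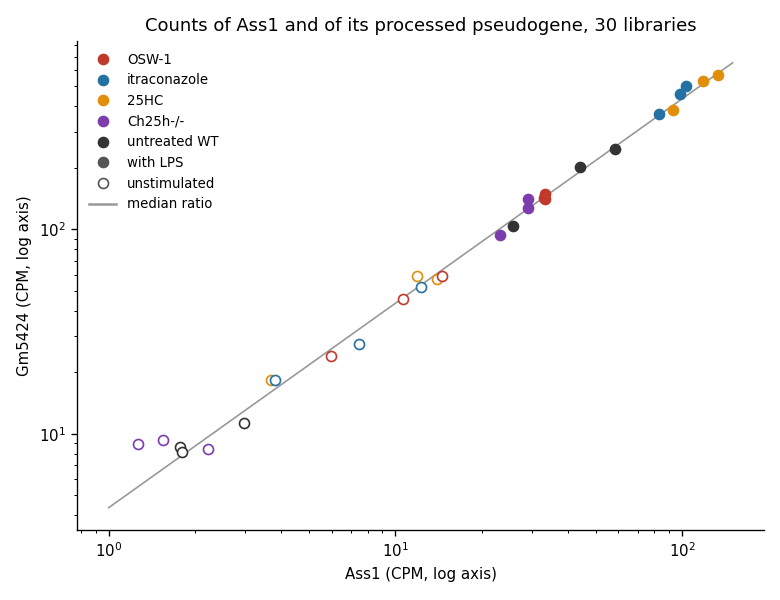
CPM of Ass1 on the horizontal axis and of its processed pseudogene Gm5424 on the vertical axis, both on log axes, in 30 libraries coloured by condition, filled with LPS and open without. The grey line is the median ratio of 4.35, and the libraries lie close to it over the whole range of levels.

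Each compound raised Ass1 in unstimulated cells. The libraries held 14.6, 10.6 and 5.94 CPM with OSW-1 (2.24 ± 0.43, adjusted p = 0.000201), 12.2, 7.49 and 3.81 CPM with itraconazole (1.83 ± 0.43, adjusted p = 0.00261) and 14.0, 11.9 and 3.69 CPM with 25HC (2.17 ± 0.43, adjusted p = 0.00049), all above the untreated libraries. Mouse 3 was lowest in all 3 treated groups. With LPS the compounds parted. Itraconazole libraries held 104, 98 and 82.9 CPM and 25HC libraries 118, 133 and 92.7 CPM, above every untreated library (1.15 ± 0.35, adjusted p = 0.0086, and 1.42 ± 0.35, adjusted p = 0.00267). Without untreated mouse 3 the itraconazole difference was 0.89 and no longer passed (adjusted p = 0.0519). OSW-1 libraries read 33.2, 33.1 and 33.3 CPM, within the range of the untreated ones, and the difference of -0.36 ± 0.36 did not pass (adjusted p = 0.368). Asl (chr5:130011258-130029247, minus strand), the next enzyme of the same cycle, moved little. Its lowest library was at 58.8 CPM and its highest at 87.2 CPM. With 25HC it read 87.2, 86.7 and 77.3 CPM with LPS and 59.3, 60.7 and 61.7 CPM without, a response of 0.47 ± 0.07 (adjusted p = 5.8e-06), and with itraconazole the response was 0.32 ± 0.07 (adjusted p = 0.000465). Neither pair of groups overlapped, and both calls held in every alternative. Small calls for Asl, of -0.23 ± 0.07 with itraconazole and -0.22 ± 0.07 with 25HC in unstimulated cells (adjusted p = 0.0258 and 0.0276), were lost without the low-count filter (adjusted p = 0.0695 and 0.0738), without untreated mouse 1 or mouse 3, without itraconazole mouse 2 or 3 and without 25HC mouse 1 or 2 (adjusted p = 0.0695 to 0.102).

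Arg1 (chr10:24915221-24927484, minus strand), the cytosolic arginase, was likewise brought up by LPS. It had 41.4, 22.7 and 39.1 CPM in untreated wild-type cells with LPS, and no more than 2.07 CPM in any unstimulated library of any group. The ratio to the unstimulated untreated libraries was 243 (95% exact binomial interval 123 to 563). In Ch25h-/- cells with LPS it had 45.7, 53.2 and 75.1 CPM, a ratio of 592 (300.1 to 1372). Both intervals cover counting error only and leave out the spread between mice. The edgeR responses were 7.89 ± 1.48 in untreated wild-type and 9.15 ± 2.02 in Ch25h-/- cells. Over the alternatives they ran from 7.23 to 10.1 and from 8.61 to 11.4. So LPS brought up the gene of the synthase and that of the competing arginase in the same cultures. Among the LPS groups its mean was 3.62 CPM with OSW-1, 163 CPM with itraconazole, 61.6 CPM with 25HC and 34.4 CPM in untreated cells. OSW-1 libraries held 0.321, 0.486 and 10.0 CPM, all below the untreated ones, and mouse 3 stood far above the other two. Arg1 fell by 3.21 ± 0.62 (edgeR adjusted p = 7.24e-05), and the value was -6.39 without that library (adjusted p = 1.04e-08). Itraconazole libraries held 121, 111 and 255 CPM, all above the untreated ones (2.24 ± 0.53, adjusted p = 0.00153), with mouse 3 again highest. 25HC libraries held 65.0, 61.6 and 58.2 CPM. They too lay above the untreated ones, but the difference of 0.84 ± 0.54 did not pass (adjusted p = 0.22). It passed with limma-voom (adjusted p = 0.00811) and in the fit on the compared groups alone (adjusted p = 0.0224).

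Whether LPS raised Arg1 at all after OSW-1 rests on 1 library. The LPS libraries at 0.321, 0.486 and 10.0 CPM stood against 0.479, 0.635 and 2.07 CPM in the unstimulated OSW-1 libraries, and the groups overlapped. Those unstimulated OSW-1 levels lay above 0, 0.365 and 0.0619 CPM in untreated cells, a difference that did not pass (adjusted p = 0.0931) except with DESeq2 (0.0201) and in the fit on the compared groups alone (0.0347). The LPS response of 1.87 ± 0.79 passed in the edgeR fit (adjusted p = 0.0337) but was -1.32 and not called without the LPS library of mouse 3 (adjusted p = 0.181). It did not pass with DESeq2 (adjusted p = 0.0978), with limma-voom (adjusted p = 0.616), in the fit on the compared groups alone (adjusted p = 0.175), or without unstimulated mouse 1 or mouse 2 of the OSW-1 group (adjusted p = 0.125 and 0.105).

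**Figure D3:**
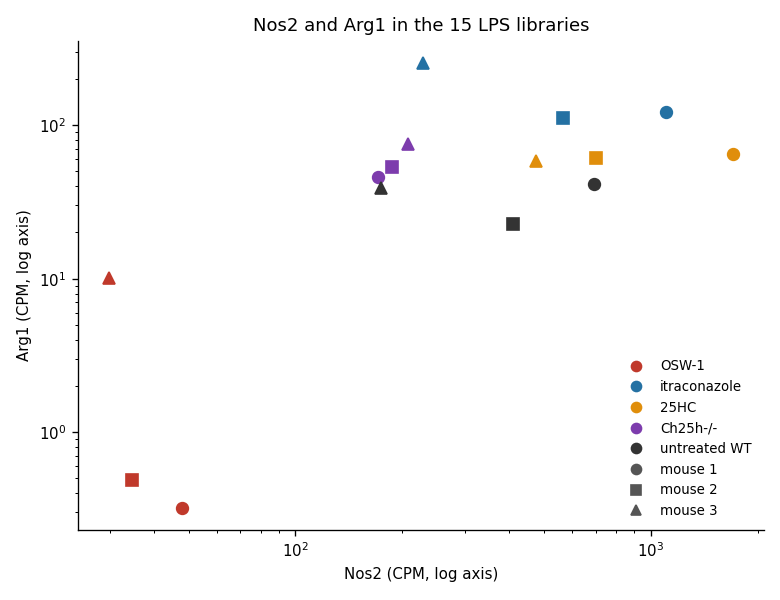
CPM of Nos2 on the horizontal axis and of Arg1 on the vertical axis, both on log axes, in the 15 LPS libraries, coloured by condition with a symbol for each mouse. OSW-1 libraries are low for both genes, at 29.8 to 48 CPM of Nos2 and 0.321 to 10.0 CPM of Arg1, and itraconazole libraries hold the most Arg1, at 111 to 255 CPM.

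Arg2 (chr12:79130777-79156301, plus strand), the mitochondrial arginase, did not share the fall of Arg1 under OSW-1. LPS took untreated wild-type cells to 21.3, 12.8 and 12.2 CPM, against at most 1.01 CPM in any unstimulated library (6.40 ± 0.58, adjusted p = 4.82e-12). The untreated unstimulated libraries held 2, 2 and 16 counts, and the response was 8.19 without mouse 3 among them. With LPS each compound raised it above all untreated libraries. The levels were 32.9, 25.9 and 33.7 CPM with OSW-1 (1.00 ± 0.28, adjusted p = 0.00248), 53.8, 45.5 and 27.5 CPM with itraconazole (1.45 ± 0.27, adjusted p = 0.000112) and 33.4, 41.2 and 25.6 CPM with 25HC (1.11 ± 0.27, adjusted p = 0.00237). In unstimulated cells OSW-1 alone passed, at 0.784, 0.879 and 1.01 CPM against 0.0473, 0.0521 and 0.495 CPM in untreated libraries (2.28 ± 0.62, adjusted p = 0.00223). The untreated library of mouse 3 decides the size of that difference, which was 4.06 without it, and without it the itraconazole difference also passed (3.21, adjusted p = 0.00516, against 1.43 and 0.0887 with it, and 0.0119 with DESeq2). Arg2 shares 285 exon bases with Vti1b on the opposite strand, and the strand setting of the counting is not stated in the sources used here.

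Slc7a2 (chr8:40862396-40922308, plus strand) encodes CAT2, the transporter known to be induced with the synthase in macrophages. It read 198, 163 and 62.3 CPM in untreated wild-type cells with LPS, against 1.82 to 6.65 CPM in the 15 unstimulated libraries (5.59 ± 0.42, adjusted p = 1.8e-10). No difference between a compound and untreated cells passed without LPS. With LPS, itraconazole took it to 1021, 1063 and 549 CPM (2.64 ± 0.37, adjusted p = 4.31e-06) and 25HC to 559, 800 and 564 CPM (2.18 ± 0.37, adjusted p = 7.92e-05), all above the highest untreated library. OSW-1 libraries held 207, 231 and 540 CPM, also above the untreated ones, with mouse 3 far above the other two. The OSW-1 change of 1.21 ± 0.37 passed (adjusted p = 0.0055), but without mouse 3 it was 0.63 and did not (adjusted p = 0.122). Under OSW-1 with LPS, then, Nos2 fell while the CAT2 transcript did not.

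Slc7a1 (chr5:148327410-148399904, minus strand), the constitutive transporter CAT1, and Odc1 (chr12:17544794-17551505, plus strand) were raised by each compound already at rest, as was Ass1. Their LPS responses in untreated wild-type cells were 0.69 ± 0.30 and 0.11 ± 0.21, against 4.27 ± 0.42 for Ass1. Slc7a1 read 150, 122 and 95.9 CPM with OSW-1 (2.37 ± 0.30, adjusted p = 1.57e-06), 86.1, 87.8 and 68.9 CPM with itraconazole (1.77 ± 0.30, adjusted p = 0.000127) and 107, 114 and 53.7 CPM with 25HC (1.95 ± 0.30, adjusted p = 3.59e-05) in unstimulated cells, against 27.0, 31.5 and 12.3 CPM in untreated cells. All treated libraries lay above all untreated ones. With LPS it stood at 249, 249 and 261 CPM with OSW-1 (2.73 ± 0.29, adjusted p = 2.35e-08), 146, 141 and 117 CPM with itraconazole (1.81 ± 0.29, adjusted p = 2.13e-05) and 68.0, 94.8 and 105 CPM with 25HC (1.22 ± 0.29, adjusted p = 0.00207), against 39.2, 53.2 and 22.4 CPM in untreated cells. The doses differ between compounds, so these values are set side by side without a comparison between them. LPS itself moved Slc7a1 little in untreated wild-type cells. That response of 0.69 ± 0.30 (adjusted p = 0.0488) was lost in the fit on the compared groups alone (adjusted p = 0.164), with DESeq2 size factors (0.0522), with halved counts (0.0505), and without unstimulated mouse 1 or 3 (0.0528 and 0.256) or LPS mouse 1 or 2 (0.0873 and 0.32). The log2 change was 0.40 without unstimulated mouse 3 and 0.38 without LPS mouse 2.

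Odc1, the first enzyme of polyamine synthesis, had 54.6, 61.2 and 52.6 CPM with OSW-1, 59.8, 67.1 and 62.6 CPM with itraconazole and 57.9, 64.0 and 28.6 CPM with 25HC in unstimulated cells, against 21.4, 26.8 and 18.4 CPM in untreated cells. The 3 groups all lay above the untreated one, by 1.34 ± 0.21, 1.51 ± 0.21 and 1.18 ± 0.21 (adjusted p = 2.59e-05, 1.57e-05 and 0.000198 for OSW-1, itraconazole and 25HC). With LPS, OSW-1 took Odc1 to 133, 131 and 101 CPM (2.34 ± 0.21, adjusted p = 8.47e-10). Itraconazole libraries with LPS held 49.4, 50.3 and 42.1 CPM (0.98 ± 0.21, adjusted p = 0.000462) and 25HC libraries 48.8, 48.2 and 31.8 CPM (0.84 ± 0.21, adjusted p = 0.00293), against 27.5, 26.5 and 18.0 CPM in untreated cells. All treated libraries lay above the untreated ones, with and without LPS. Odc1 has 18 other loci at 85.2 to 97.8% identity in the annotation, of which 1, AW146154, is in the table and holds 8.22% of its counts, so the assignment of reads among these copies is uncertain.

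Over the 10 group means of log2 CPM, Slc7a1 and Odc1 had a Pearson correlation of 0.957, whereas Nos2 correlated at 0.256 with Slc7a1 and 0.0938 with Odc1. Nos2, Gch1, Ass1, Arg1, Arg2 and Slc7a2 correlated with one another at 0.819 to 0.982. These are descriptions over 10 means that share libraries and the large step at LPS. The promoters of Slc7a1 and Odc1 are shown because their transcripts moved together (RefSeq, GRCm38.p6). The first is chr5:148399905-148400154 on the minus strand and the second chr12:17544623-17544793 on the plus strand. Each is read 5′ to 3′ and ends just before the gene start annotated in GENCODE, with motif matches in capitals. For Odc1 the RefSeq window that was searched runs on past the stretch shown.
Slc7a1: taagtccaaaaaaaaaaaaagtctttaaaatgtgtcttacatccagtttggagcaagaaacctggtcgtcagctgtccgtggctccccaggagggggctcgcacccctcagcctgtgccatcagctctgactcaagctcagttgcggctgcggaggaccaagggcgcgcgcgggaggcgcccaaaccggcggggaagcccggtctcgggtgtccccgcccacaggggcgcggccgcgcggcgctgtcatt
Odc1: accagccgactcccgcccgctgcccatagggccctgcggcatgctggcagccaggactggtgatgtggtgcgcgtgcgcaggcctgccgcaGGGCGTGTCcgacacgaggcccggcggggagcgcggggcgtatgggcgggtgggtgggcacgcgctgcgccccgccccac

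Both strands were searched from 250 bases before to 50 after the RefSeq start. The patterns were the kB motif GGGNNTNTC, an interferon response element GAAANNGAA, a GAS element TTCNNNGAA, a C/EBP motif TTGCNNAA, the CRE TGACGTCA, the E-box CACGTG and the TATA letters TATAAA. The Slc7a1 window shown held none of these. The Odc1 window held 1 match to the kB letters searched, a loose pattern present in 15.3% of 32851 mouse promoters. Ass1 held a kB and an E-box match (15.3 and 7.15% of promoters), the Gch1 window a TATA match (13.6%), and a second Slc7a1 start site a GAS and a TATA match (8.3 and 13.6%). A match is a run of letters and not a site in use. Windows were matched for 4 of the 9 members.

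Counted by comparison, LPS raised most members. In untreated wild-type cells 7 of 9 were higher, where 60.9% of all tested genes were called, 30.8% higher and 30.1% lower. The median log2 change was 4.27 over the members and -0.01 over all genes. The exceptions were Asl (0.11 ± 0.07) and Odc1 (0.11 ± 0.21), which did not pass. After OSW-1 all 9 were higher (71.3% of genes called, 34.8% higher and 36.6% lower; median 1.87 against -0.03), after itraconazole 8 (67.0% called, 33.4% higher and 33.6% lower; median 3.59 against -0.02) and after 25HC 7 (63.9% called, 30.6% higher and 33.3% lower; median 3.53 against -0.04). In Ch25h-/- cells 8 were higher (57.2% called, 28.0% higher and 29.2% lower; median 3.99 against -0.02). The OSW-1 median of 1.87 is the value of Arg1, whose call rests on 1 library as given above. Over the alternatives 7 to 9 members were called after OSW-1. The Asl response after OSW-1 (0.18 ± 0.07, adjusted p = 0.0379) did not pass without the low-count filter (adjusted p = 0.0891), in the fit on the compared groups alone (0.0528) or without mouse 2 or mouse 3 of either OSW-1 group (0.0856 to 0.142). Odc1 after itraconazole, at -0.42 ± 0.21 (adjusted p = 0.0813), passed with the mouse as a block (-0.43, adjusted p = 0.0107), with limma-voom (0.0329) and in the fit on the compared groups alone (0.00495). After 25HC it did not pass (-0.23 ± 0.21, adjusted p = 0.359) except when the unstimulated library of mouse 3 was left out (-0.51, adjusted p = 0.0168). The Slc7a1 response after itraconazole (0.73 ± 0.29, adjusted p = 0.0303) was lost without unstimulated mouse 3 or LPS mouse 1 or 2 (adjusted p = 0.0705 to 0.105).

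**Figure D4:**
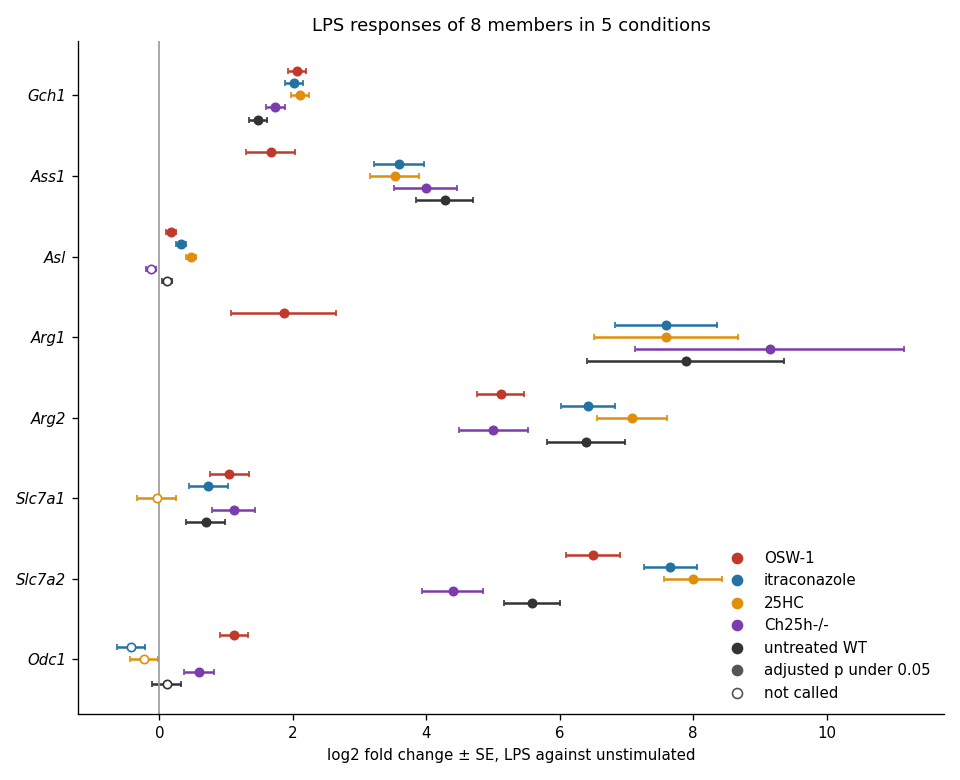
LPS responses of 8 members as log2 fold change ± SE on the horizontal axis, LPS against unstimulated, with 1 colour for each of 5 conditions and 3 libraries per group. Filled symbols passed the test. Nos2 is left out because unstimulated groups held few or no reads. The OSW-1 points of Ass1 and Arg1, at 1.67 and 1.87, stand left of the other conditions.

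The test of the difference between LPS responses compares each pretreated response with that of untreated wild-type cells, and all 4 such comparisons share the untreated libraries. With OSW-1, 4 of 9 members differed, where 51.7% of all genes were called, 23.4% higher and 28.3% lower. The difference for Arg1 was -6.02 ± 1.67 (1.87 with OSW-1, 7.89 in untreated cells; edgeR adjusted p = 0.000714) and -9.21 without mouse 3 of OSW-1 with LPS, the end of its range over all alternatives, -5.15 to -9.21. That for Ass1 was -2.61 ± 0.56 (1.67 and 4.27; adjusted p = 0.000397), and for the summed pair with Gm5424 -2.56 ± 0.53. The response of Odc1 was 1.00 ± 0.30 higher (1.11 and 0.11; adjusted p = 0.00705), and that of Gch1 0.59 ± 0.19 higher (2.06 and 1.47; adjusted p = 0.0121). For Nos2 this difference is not given, because the untreated unstimulated libraries held no read. With itraconazole, 2 of 9 differed (26.3% of genes called, 12.2% higher and 14.2% lower). These were Slc7a2, 2.07 ± 0.58 higher (7.66 and 5.59; adjusted p = 0.0112), and Gch1, 0.54 ± 0.19 higher (2.02 and 1.47; adjusted p = 0.0381). With 25HC, 3 of 9 differed (12.3% called, 5.34% higher and 6.95% lower), namely Slc7a2, 2.41 ± 0.60 higher (8.0 and 5.59; adjusted p = 0.0115), Gch1, 0.63 ± 0.19 higher (adjusted p = 0.0317), and Asl, 0.35 ± 0.10 higher (0.47 and 0.11; adjusted p = 0.0281). The Gch1 difference with 25HC was lost without unstimulated untreated mouse 1 or 2 or 25HC mouse 3, or without LPS libraries of untreated mouse 3 or 25HC mouse 1 or 2 (adjusted p = 0.0513 to 0.0831). The Asl difference was lost without unstimulated untreated mouse 1 or 3 or 25HC mouse 1 or 2, or without LPS libraries of untreated mouse 3 or 25HC mouse 1 or 2 (0.0567 to 0.0772), without the low-count filter (0.0676) and on the compared groups alone (0.0606). The Gch1 difference with itraconazole was lost without unstimulated untreated mouse 1 or 2 or itraconazole mouse 2, or without LPS libraries of untreated mouse 3 or itraconazole mouse 1 or 2 (0.0576 to 0.123), and on the compared groups alone (0.0798). The Slc7a2 difference with 25HC did not pass with limma-voom (0.0663). For Arg2 with OSW-1 the difference of -1.28 ± 0.68 (adjusted p = 0.0961) passed with DESeq2 (0.039) and without untreated unstimulated mouse 3 (-3.07, adjusted p = 0.0025).

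By count, each compound changed more members with LPS than at rest, and the share of all genes called rose as well. In unstimulated cells, OSW-1 raised 4 of 9 (Ass1, Arg2, Slc7a1 and Odc1; 37.3% of genes called, 20.1% higher and 17.2% lower), itraconazole raised 3 and lowered 1 (26.8% called, 14.4% higher and 12.4% lower), and 25HC raised 3 and lowered 1 (28.7% called, 15.9% higher and 12.8% lower), with Ass1, Slc7a1 and Odc1 raised and Asl lowered by both. With LPS, OSW-1 raised 5 and lowered 2 (71.4% called, 34.3% higher and 37.1% lower), itraconazole raised 7 (54.4% called, 26.5% higher and 27.9% lower) and 25HC raised 7 (41.8% called, 20.8% higher and 21.0% lower). Under OSW-1 with LPS the members' share called, 7 of 9, is close to that of all genes. The comparisons of the 3 compounds share the untreated libraries.

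**Figure D5:**
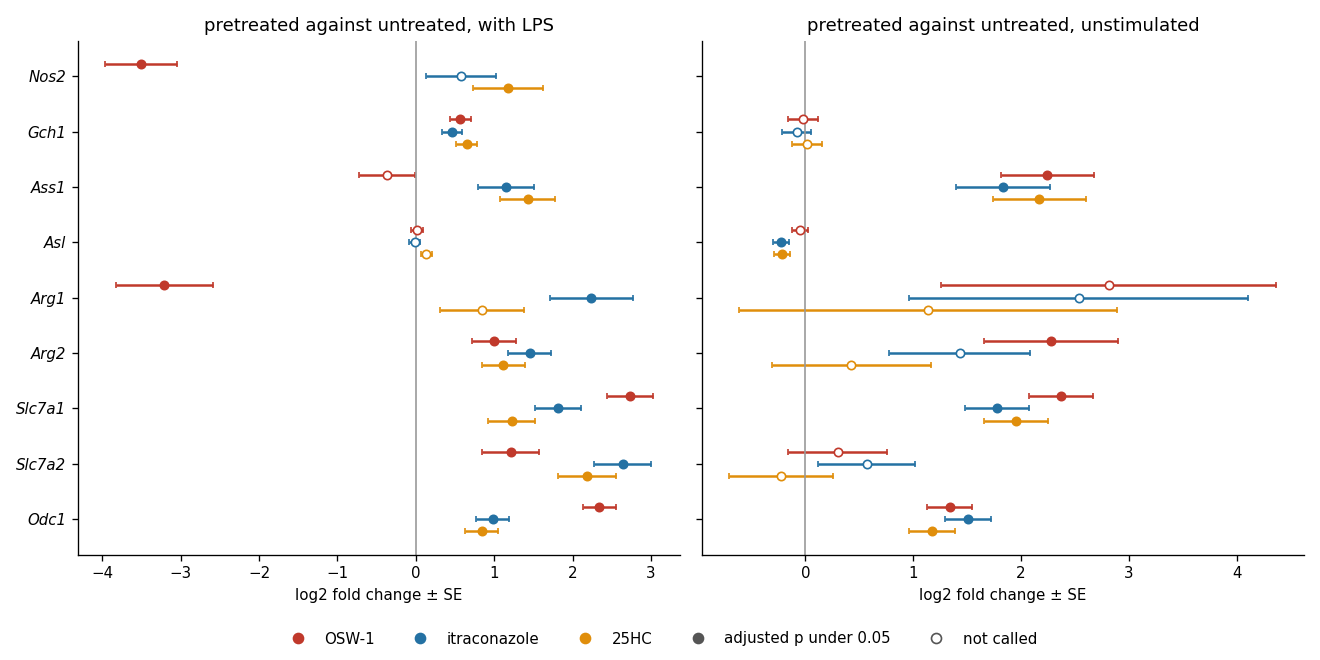
Change of each member with pretreatment as log2 fold change ± SE on the horizontal axis, compound against untreated wild-type cells, with LPS on the left and unstimulated on the right, 3 libraries per group. Filled symbols passed the test, and Nos2 is not drawn without LPS because the untreated libraries held no read. With LPS, OSW-1 is alone on the left for Nos2 (-3.50) and Arg1 (-3.21).

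Between Ch25h-/- and wild-type cells no member passed. Without LPS the edgeR test called 0 of 9 members (0.00759% of all genes called, 0% higher and 0.00759% lower), with 3 members at an unadjusted p under 0.05. With LPS it called 0 of 9 (0.228% of genes, 0.0152% higher and 0.213% lower), with 4 members at an unadjusted p under 0.05, and for the difference of LPS responses 0 of 9 (0% of genes) with 1. DESeq2 called 1, 1 and 0 members in these 3 comparisons and limma-voom 0 in each. Among the LPS libraries, Slc7a2 held 35.4, 58.2 and 57.8 CPM in Ch25h-/- cells and 198, 163 and 62.3 CPM in wild-type cells, without overlap (-1.48 ± 0.37, adjusted p = 0.0798), and this is the gene DESeq2 called (-1.46, adjusted p = 0.0285). Nos2 read 170, 187 and 208 CPM in Ch25h-/- cells and 691, 409 and 174 CPM in wild-type cells, and the groups overlapped (-1.17 ± 0.45, adjusted p = 0.204). The wild-type library of mouse 3 has much weight here. Without it 4 members were called, all lower in Ch25h-/- cells, namely Slc7a2 (-1.84, adjusted p = 0.00128), Nos2 (-1.54, adjusted p = 0.0182), Asl (-0.25, adjusted p = 0.0279) and Slc7a1 (-0.96, adjusted p = 0.0287). Over all genes the same fit called 2396, against 30 with that library, so the gain in calls was not particular to the members. Without LPS, leaving out wild-type mouse 3 called Slc7a1 (-1.41, adjusted p = 0.014), which DESeq2 also called with it (-1.12, adjusted p = 0.029). Over all genes these 2 fits called 361 and 129, against 1 in the main fit. In Ch25h-/- cells the LPS response of Odc1 passed (0.59 ± 0.22, adjusted p = 0.0263), with 18.5, 22.9 and 22.3 CPM with LPS and 13.4, 15.7 and 13.2 CPM without. It was lost without unstimulated mouse 1 or 3 or LPS mouse 2 or 3 (adjusted p = 0.068 to 0.0788).

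Wild-type mice 1 and 3 lay on opposite sides of the group mean for several members. Averaged over the 8 wild-type groups, log2 CPM of mouse 3 deviated from the group mean by -0.48 for Nos2, -0.52 for Ass1, -0.33 for Slc7a1 and -0.29 for Odc1, and by 0.69 for Arg1. For mouse 1 the deviations were 0.29 for Nos2, 0.41 for Ass1, 0.11 for Slc7a1, 0.10 for Odc1 and -0.57 for Arg1. For Asl, Arg2 and Slc7a2 both mice were within 0.143 of the mean in either direction. In the 15 LPS libraries the highest Nos2 was that of mouse 1 with 25HC and the highest Arg1 that of mouse 3 with itraconazole. Per kilobase of exon, which allows levels of different genes to be set side by side, cells with OSW-1 and LPS held 8.495 CPM per kb of Nos2, 35.68 of Slc7a2, 1.623 of Arg1, 21.57 of Arg2 and 21.95 of Slc7a1. Untreated cells with LPS held 96.25 of Nos2, 15.45 of Slc7a2, 15.45 of Arg1, 10.81 of Arg2 and 3.318 of Slc7a1. Of the 2 arginases, the mean level per length was higher for Arg2 with OSW-1 and LPS, and higher for Arg1 in untreated cells with LPS.

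The other genes around the pathway were read from 7 lists with 67 tested genes. Over all tested genes the median log2 change lay between -0.06 and 0.01 in the comparisons below, and the share of genes called in each was given above. A list's median stands for no test, and "rose" and "fell" of single genes mean an edgeR adjusted p under 0.05. Of 6 genes for other NO synthases, their regulators and NO effectors, OSW-1 with LPS raised 1 and lowered 5 (median -1.95). Ddah2, an enzyme of the dimethylarginine hydrolase family, fell by 3.07 ± 0.24, the heme oxygenase Hmox1 by 3.46 ± 0.29, Adh5, which acts on S-nitrosoglutathione, by 0.83 ± 0.08 and the endothelial synthase Nos3 by 3.11 ± 0.74. With LPS, itraconazole raised 1 and lowered 3 of these 6, and 25HC lowered 2, and the change of Ddah2 was -2.27 ± 0.22 with itraconazole and -1.48 ± 0.21 with 25HC. The list's median was -1.0 and -0.53 in these 2 comparisons. The 6 other tetrahydrobiopterin genes did not follow Gch1. LPS lowered 4 of them in untreated wild-type cells, with a list median of -0.73. The reductase gene Qdpr fell by 0.95 ± 0.15. Under LPS, OSW-1 and itraconazole each lowered 5 and 25HC 2, among them Pts, which makes the intermediate after the Gch1 step (-0.62 ± 0.16, -0.42 ± 0.15 and -0.69 ± 0.16), with list medians of -0.94, -0.56 and -0.46.

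Of 11 genes of the urea cycle, arginine transport and creatine synthesis, OSW-1 with LPS raised 3 and lowered 6 (median -1.08). Azin2, an antizyme inhibitor, fell by 3.27 ± 0.23, the arginine:glycine amidinotransferase Gatm by 3.52 ± 0.27 and the methyltransferase Gamt by 5.00 ± 0.54, and the transporter Slc7a6 rose by 1.99 ± 0.14. Gatm, which uses arginine to begin creatine synthesis, instead rose with itraconazole (1.67 ± 0.25) and with 25HC (1.87 ± 0.25) under LPS. In unstimulated cells OSW-1, itraconazole and 25HC raised Slc7a6 (1.65 ± 0.14, 1.36 ± 0.14 and 1.52 ± 0.14) and the heavy chain Slc3a2 (1.24 ± 0.16, 0.44 ± 0.16 and 0.80 ± 0.16), which pairs with such transporters. Of the 6 ornithine and proline genes, 3, 3 and 4 were raised there, each time with the proline-forming reductase Pycr1 (2.47 ± 0.32, 2.14 ± 0.33 and 2.31 ± 0.33) and the synthase Aldh18a1 (1.68 ± 0.22, 1.28 ± 0.22 and 1.52 ± 0.22), and medians of 0.60, 0.67 and 0.43. Aldh4a1, of proline breakdown, fell in all 3 (-1.02 ± 0.13, -0.71 ± 0.13 and -0.76 ± 0.13).

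Around Odc1, the 16 polyamine genes split. In unstimulated cells OSW-1 raised 5 and lowered 3, itraconazole raised 6 and lowered 4, and 25HC raised 7 and lowered 4 (medians 0.26, 0.20 and 0.27). Spermidine synthase, Srm, rose with each (1.44 ± 0.27, 1.63 ± 0.27 and 1.77 ± 0.27), and the oxidase Paox (-1.65 ± 0.21, -1.04 ± 0.20 and -1.11 ± 0.21) and the polyamine exporter of lysosomes Atp13a2 (-0.84 ± 0.14, -0.66 ± 0.14 and -0.77 ± 0.14) fell. With LPS, OSW-1 raised 8 and lowered 5 (median 0.25). Srm rose by 2.58 ± 0.27 and the hypusine enzyme Dohh by 1.17 ± 0.12, while Paox fell by 3.35 ± 0.25 and Atp13a2 by 3.09 ± 0.15.

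Transcription factors known at Nos2 or Arg1 numbered 13, all tested. In untreated wild-type cells LPS raised 7 and lowered 2 (median 0.81). Hif1a rose by 2.61 ± 0.13 and Cebpb by 2.66 ± 0.19, and Pparg fell by 2.45 ± 0.18. Under LPS, OSW-1 raised 6 and lowered 2 (median 0.27). The NF-kB subunits Nfkb1 (2.28 ± 0.11), Rel (2.72 ± 0.14) and Rela (1.44 ± 0.11) rose. Itraconazole and 25HC with LPS each raised 9 and lowered 1 (medians 0.56 and 0.60), led by Klf4 (1.65 ± 0.17 and 1.63 ± 0.17). In unstimulated cells Atf4, a regulator of amino acid stress genes, rose by 1.71 ± 0.18 with OSW-1, 0.91 ± 0.18 with itraconazole and 1.27 ± 0.18 with 25HC.

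The other alternative activation genes moved in both directions. Of 9 tested, LPS raised 4 and lowered 5 in untreated wild-type cells (median -1.49). The interleukin-4 receptor chain Il4ra rose by 2.97 ± 0.21 and Tgm2, a transglutaminase, by 1.24 ± 0.18, and the mannose receptor Mrc1 fell by 3.45 ± 0.26. With LPS, OSW-1 raised 1 and lowered 7 (median -2.47). Mrc1 fell by 6.05 ± 0.31 and the scavenger receptor Cd163 by 4.20 ± 0.97. Itraconazole, which raised Arg1 with LPS, raised 1 and lowered 5 of this list (median -1.14). Tgm2 rose by 2.03 ± 0.17 and Mrc1 fell by 2.88 ± 0.26. With 25HC and LPS, 1 rose and 6 fell (median -1.59). In Ch25h-/- against wild-type cells the edgeR test called 0 of the 67 list genes both with and without LPS, with 11 and 15 of them at an unadjusted p under 0.05, where DESeq2 called 230 and 129 genes of the whole table and limma-voom 1 and 15.

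Among genes with an average log2 CPM of at least 2, those whose 10 group means followed Nos2 most closely were M6pr (r = 0.998), Il1rn (0.996), Atp6v0a2 (0.996), Tcf20 (0.994) and Slc11a1 (0.993). For Arg1 they were Fbxl5 (0.986), Mboat7 (0.980), Zfp503 (0.978), Slc16a3 (0.975) and Egln3 (0.974). The nearest to Slc7a1 was Chac1 (0.992), to Slc7a2 Pstpip2 (0.997), to Odc1 Gemin2 (0.987), to Gch1 Gm9845 (0.994), to Arg2 Dcp1a (0.993) and to Asl Gpank1 (0.922), and the nearest to Ass1 was its copy Gm5424 (0.999). These coefficients describe 10 group means dominated by the LPS step.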

How the data were processed

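RNA of 30 macrophage libraries was made with polyA selection and a stranded TruSeq kit, per the labels' protocols. The authors deposited 1 table of raw read counts per gene. Its notes name FastQC 0.11.9, GSNAP, Subread 1.5.2, edgeR 3.26.8 and GRCm38, per the submitters' processing notes, and the strand setting of the counting is not given in the sources used here. Samples were grouped by the labels. Genes passing filterByExpr (minimum count 10) were fitted together in edgeR 4.0.16 (R 4.3.3) with TMM, a quasi-likelihood test and Benjamini-Hochberg adjustment over 13173 genes, in 17 comparisons. SEs come from the fitted coefficients, and the pipeline was tested on simulated data. Totals of 23656860 to 43922154 counts lie behind the values, and low counts limit Nos2, Arg1 and Arg2 at rest. All counts were even in 20 libraries, and halving these is an alternative.

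Alternatives were DESeq2 1.42.0 and its size factors, limma-voom (limma 3.58.1), no filter, the compared groups alone, halved counts, the mouse as a block, each library left out, and Ass1 summed with Gm5424, the last chosen after seeing the data. The labels give a mouse number for each library, and equal numbers within a genotype were taken as 1 animal. Deviations of same-mouse wild-type libraries correlated above 0.1 in 36 of 84 pairs, with a median of 0.0865. Mice of different genotypes share only a number. P-values of the main fit rest on a spread between libraries estimated over all 10 groups of 3, without the mouse as a term. Copies were found with BLAST 2.17.0 in GENCODE vM21 transcripts, and promoters are RefSeq's. The 9 genes are all named. From the other lists at most 4 called genes per comparison with the smallest p are named. The members and lists were chosen with earlier results of these data known. Single values of 2 list genes are not reported here.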

Additional observations from a re-analysis of the deposited data

Results flagged for a closer look

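The LPS response differed from that of untreated wild-type cells, by edgeR's test of the difference itself with Benjamini-Hochberg adjustment, for 9 pairs of member and pretreatment, each with 3 mice per group. With OSW-1 the difference was -6.02 for Arg1, -2.61 for Ass1, 1.00 for Odc1 and 0.591 for Gch1. With itraconazole it was 2.07 for Slc7a2 and 0.542 for Gch1. With 25HC it was 2.41 for Slc7a2, 0.632 for Gch1 and 0.355 for Asl. Of all tested genes, 51.7% were called in this test with OSW-1, 26.3% with itraconazole and 12.3% with 25HC. As given above, the Gch1 calls with itraconazole and 25HC and the Asl call were lost in several settings. The Slc7a2 call with 25HC was lost with limma-voom. For Odc1 the level rose with OSW-1 pretreatment and LPS, at 133, 131 and 101 CPM, against 27.5, 26.5 and 18.0 CPM in untreated cells with LPS. For Arg1 the OSW-1 library of mouse 3, at 10.0 CPM, lay far from the other two at 0.321 and 0.486 CPM. For Ass1 the value is that of its own row, and the sum with its pseudogene Gm5424 gave -2.56.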

How the results depend on the processing

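Over 2215 recalculated member values, 2122 kept their side of the threshold, 66 lost the call and 26 gained one. Of values not called in either fit, 44 changed sign. The 1 called value that changed sign was the Arg1 response to LPS after OSW-1, at -1.32 without the LPS library of mouse 3 (2.74 at most with another library left out). With the mouse as a replicate block, Odc1 after itraconazole became called (-0.43, adjusted p = 0.0107), as did Nos2 with itraconazole in unstimulated cells (adjusted p = 0.0438). No other member's call changed with this block. For Nos2 in unstimulated cells the main edgeR fit gave adjusted p = 0.283 with itraconazole and 0.412 with 25HC. DESeq2 called it higher with both (adjusted p = 0.00205 and 0.0128). The untreated libraries held no read, so these calls rest on a few reads. Between Ch25h-/- and wild-type cells without LPS, DESeq2 called 1 member, and leaving out a library gave 0 to 1. With LPS, 1 was called by DESeq2, 1 without the low-count filter and 0 to 4 with a library left out. The difference of responses held 1 to 3 members with a library left out for 25HC, and for itraconazole 1 on the compared groups alone and 1 to 2 with a library left out. With a library left out the members called after LPS were 6 to 8 in untreated wild-type cells, 7 to 9 with OSW-1, 7 to 8 with itraconazole, 7 to 8 with 25HC and 7 to 8 in Ch25h-/- cells. Over all genes the calls with LPS were 7164 for itraconazole and 4571 on the compared groups alone, and 5512 and 3215 for 25HC. The differences of responses were 3467 and 2292 for itraconazole and 1620 and 903 for 25HC. Between genotypes the calls were 1 without LPS (DESeq2 129, limma-voom 15, DESeq2 size factors 5, halved counts 6, no filter 2, mouse number as a block 30, compared groups alone 0) and 30 with LPS (DESeq2 230, limma-voom 1, halved counts 58, no filter 81, mouse number as a block 78, compared groups alone 0). Without wild-type mouse 3 they were 361 and 2396. The cause of these changes was not tested. Low counts limit Nos2, Arg1 and Arg2 in unstimulated cells.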
